A study of Danio rerio with 72 samples.

Results

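The genes for proteins of the cytosolic ribosome were described across the captured regions of the zebrafish tail. They were taken by name alone, as every symbol that starts with rpl or rps (in either case) followed by a digit, plus rplp0, rplp1, rplp2, rplp2l and rpsa, with the S6 kinase genes left out. This gave 86 of the 25067 protein-coding genes listed, 49 with names of the large (60S) subunit and 37 with names of the small (40S) subunit. The pattern also took in rps19bp1, which codes for a protein that binds RPS19 and is not itself a ribosomal protein, and rpl7l1, a relative of rpl7. Some genes stood as separate rows whose symbols differ only in case, so reads of near-identical copies may have been split between them.

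Embryos of zebrafish (Danio rerio) were used at 52 hours post fertilization (hpf), and poly(A) RNA was sequenced from laser-cut pieces of frozen tail sections stained with cresyl violet. The labels give no strain, genotype or treatment, and age and handling are shared by all groups. Every section gave 6 captures, namely neural tissue (N), left (L) and right (R) muscle, and 3 vascular pieces. These are the caudal artery (CA), the vein below it (caudal vein, CV) and the plexus of that vein (CVP), which together form the caudal hematopoietic tissue (CHT), the niche in which the embryo's blood stem cells lodge. Libraries come in 2 series called M and Z, each of 6 numbered layers (M layers 2, 6, 8, 12, 15 and 17, Z layers 1, 6, 10, 19, 22 and 25), which gave 6 libraries per region and series. The labels say neither what M and Z are nor how many embryos the sections represent, so all p-values measure the spread between sections, which may be technical. A capture holds whatever cells lie inside its outline.

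Ribosomes translate mRNA into protein. The small subunit reads the message and the large subunit joins amino acids, and each mature ribosome carries nearly every one of its proteins in a single copy. Cells therefore make ribosomal proteins in step, in part through a pyrimidine-rich start shared by their mRNAs (the 5' terminal oligopyrimidine, or TOP, motif) that places their translation under growth control by mTOR. The exception to single copies is the stalk of the large subunit, where rplp0 anchors dimers of rplp1 and rplp2 that recruit translation factors. In blood formation the genes are known from disease, since mutations of human RPS19, RPL5 and RPL11 cause Diamond-Blackfan anaemia.

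Depth ran from 75069 to 875598 reads per library in the M series and from 91122 to 4011028 in the Z series. The L library of layer 6 in the Z series equalled the rounded-up mean of the L libraries of layers 1 and 10 for 7859 of its 7859 detected genes and was left out, so 71 of the 72 libraries were used. Summed FPKM of 6 neural markers was 2249 to 2847 in N of the M series and 2565 to 3900.5 in N of the Z series, against at most 152 in any other capture. Muscle markers summed to 79444 to 177577 in L and 72960.2 to 157075 in R of the M series, and to 44537 to 156328 and 45742 to 129748 in the Z series. The vascular captures were mixed. The 5 endothelial markers reached 0 to 223 in CV of the M series, with all 5 at 0 in at least 1 library and none at 0 throughout, while 4 epidermal markers stood at 11142 to 34111 there and at 6398 to 19677 in CV of the Z series. Red cell markers summed to 19406 to 215807 in CA, 1652 to 246583 in CV and 1625 to 147074 in CVP of the Z series, and to at most 6531 in any library of the M series. In 7 libraries the expression profile lay closest to another region than the labelled one, all vascular, namely M layers 8, 15 and 17 of CA and 17 of CVP, and Z layer 22 of CVP and layer 25 of CV and CVP.

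Values are FPKM, read counts divided by gene length and by the library's total reads, so each is relative to its library and not an amount per cell. FPKM do not add up to a common total. In the M series they summed to 404352 to 418343 in N and 614208 to 706084 in L. In such bulk captures fewer cells of a type and less RNA per cell cannot be told apart. By group medians the median ribosomal protein gene was highest in muscle and lowest in N and CVP. Its level in the M series was 584 to 651 (median 609) FPKM in L, 576 to 858 (median 735) in R and 219 to 276 (median 265) in N. In the Z series the L libraries, layers 1, 10, 19, 22 and 25, stood at 788, 889, 782, 877 and 887, R at 803 to 873 (median 836) and N at 332 to 628 (median 486). No N library reached a muscle library of its series, and muscle exceeded N within 6 of 6 sections of each series.

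The vascular captures were more spread. The median gene of the M series was at 293 to 618 (median 418) FPKM in CA, 233 to 758 (median 302) in CV and 117 to 516 (median 252) in CVP. In the Z series the same captures gave 698 to 935 (median 733), 468 to 855 (median 659) and 190.3 to 760.0 (median 404). Within a section CA exceeded CVP in 5 of 6 cases in the M series and 6 of 6 in the Z series, and CV exceeded CVP equally often. CVP and N had no fixed order, with CVP above N in 2 of 6 sections of the M series and 3 of 6 of the Z series.

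**Figure D1:**
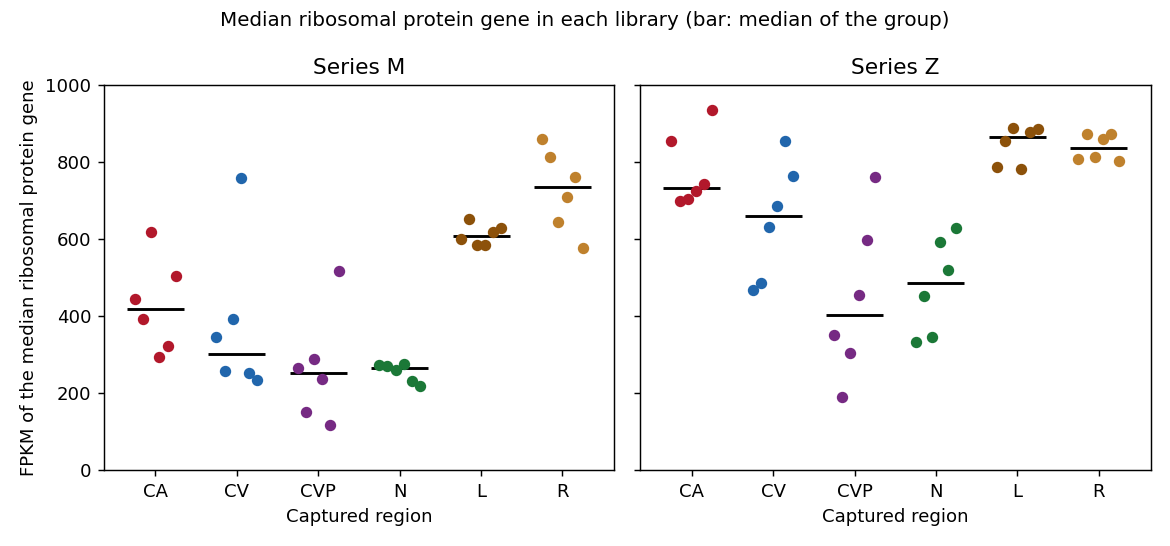
FPKM of the median ribosomal protein gene (vertical axis, linear from 0) in each library, by captured region, for the M series (left) and Z (right). Points are libraries ordered by layer within a region, and bars are group medians. The L group of the Z series here includes the layer 6 library left out elsewhere, at 853 FPKM. It also enters the bar of that group, whose median is 877 FPKM over the 5 libraries used. The L and R points of both series lie above all N points, and the CVP points spread from 117 to 760.0 FPKM.

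Counted in reads, the 86 genes took 2.28 to 3.03 (median 2.87) percent of a library in N of the M series, against 6.45 to 7.24 (median 6.71) in L and 6.35 to 9.32 (median 7.77) in R. In the Z series they took 3.51 to 6.78 (median 5.09) percent in N, 8.34 to 9.86 (median 9.44) in L and 8.42 to 9.76 (median 9.53) in R. As a percent of summed FPKM they made up 5.51 to 7.19 in N of the M series, 10.5 to 11.4 in L and 10.3 to 15.7 in R. In the Z series this was 8.56 to 14.7 in N, 13.1 to 15.8 in L and 13.4 to 15.8 in R, so that N and muscle overlapped there. The shares that follow are again of reads. The share was lowest in a CVP library of each series, at 1.4 percent (95% Wilson interval 1.32 to 1.48) and 2.41 (2.37 to 2.44). It was highest in an R library of the M series, at 9.32 (9.26 to 9.38), and a CA library of the Z series, at 10.1 (10.0 to 10.1). N libraries also detected more genes, 15754 to 18081 (median 16842) in the M series, while L detected 6477 to 9372 (median 8110.5) and R 5449 to 9176 (median 7407).

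Ranks within a library do not depend on its scaling. Of the 100 genes with the highest FPKM in a library, ribosomal protein genes made up 11 to 24 (median 19) in N of the M series, 27 to 35 (median 32) in L and 30 to 40 (median 35.5) in R. The Z libraries gave 22 to 43 (median 31.5) in N, 26 to 40 (median 31) in L and 28 to 39 (median 30.5) in R, so that by rank the N and muscle libraries overlapped there. CA of the Z series held 37 to 44 (median 40.5) of them. RPL41 itself ranked from 5 to 9 in N of the M series and from 9 to 14 in muscle, and from 3 to 4 in N of the Z series against 5 to 11 in muscle. Its rank was thus higher or equal in N although its FPKM was lower.

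Levels ranged widely between genes. Averaged over the libraries of a series, RPL41, the shortest protein of the large subunit, was at 6848 FPKM in the M series and 11316 in the Z series. The stalk base rplp0 stood at 2435 and 2957, and RPL37A, a zinc-binding protein of the large subunit, at 1869 and 2879. At the other end, rps8b was above 0 in 4 libraries of the M series and 2 of the Z series and is the second row of a protein whose other row was well expressed. rpl7l1 averaged 10.6 and 7.30 FPKM. Across 84 genes, the level was ordered alike in both series (Spearman's rho = 0.955), as a description. It also followed the gene length on which the FPKM rest (rho = -0.494 in the M series, -0.549 in the Z series), which ran from 346 bases for rps29 to 3569 for rps24. The median length was 1104 bases, and 2471 over all genes tested.

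The genes moved together from library to library. On the log2 scale the median gene had an SD of 0.92 over the libraries of the M series and 0.69 over those of the Z series. After the median of all ribosomal protein genes was subtracted in each library, 0.49 and 0.37 were left. The median correlation of a gene with the others was 0.847 in the M series and 0.840 in the Z series, over 36 and 35 libraries that share their depth and composition, again as a description. No value for other genes is set beside these, so the common movement is not shown to be particular to them. The order of levels was much the same in N and muscle, with rho = 0.937 in both series.

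Of the genes, 84 in the M series and 85 in the Z series reached 1 FPKM in at least 6 libraries and were tested (rps8b in neither), and 78 were above 0 in every library used. Tests were limma-trend fits on log2(FPKM + 1), with Benjamini-Hochberg adjustment over all genes tested and calls at an adjusted p under 0.05. For comparisons between regions, all 6 regions of a series were fitted together and share 1 spread per gene. The regions were not equally spread. In the M series the median gene had an SD of 26.5 FPKM in L and 23.7 in N, against 198 in CV and 141 in CVP. Vessel p-values therefore rest partly on the spread of N and muscle, and those of N against muscle partly on the vascular spread. Counts at an unadjusted p under 0.05, and counts with 1 section left out, are given without the share of all genes in the same fit. They therefore show no excess of these genes over others, and percentages printed beside them belong to the adjusted calls.

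N against muscle asks how the captured neural tissue differs from the muscle beside it. As deposited, most of the ribosomal protein genes tested were lower in N, with the larger count in the M series. Of the 84 tested in the M series 78 fell and 1 rose, where 3.27% of all genes tested fell and 49.1% rose. In the Z series 53 of 85 fell and 0 rose, where 3.49% fell and 41.8% rose, with 64 of the 85 at an unadjusted p under 0.05. The median gene changed by -1.36 in the M series and -0.79 in the Z series on the log2 scale, while the median of all genes changed by 1.63 and 1.32. The same 53 genes were lower in both series. Both subunits took part, with 46 of 49 large subunit and 32 of 35 small subunit genes lower in the M series, and 31 of 49 and 22 of 36 in the Z series. The count of 53 in the Z series was 24 without layer 10 and 29 without layer 1.

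How far this went depended on the scaling and on the fit. After quantile scaling, which gives every library the same distribution, 19 fell and 2 rose in the M series with a median change of -0.66, where 7.33% of all genes fell and 11.4% rose. In the Z series 4 then fell and 5 rose, where 7.22% of all genes fell and 13.5% rose, and the median was -0.074. Both counts of the Z series lay below the share of all genes, so no excess of these genes was left there in either direction. rpl24, rplp1 and rps12 remained lower in both series, and RPL41 and RPL37A turned to higher in both. In the Z series rpl5a was the other gene then lower, and rpl18, rpl32 and rps27.1 were the others then higher, named after their values were seen. Rescaling each library to a fixed sum of length-corrected values (TPM) left 33 and 11 lower. Of all genes 2.42% and 2.56% were then lower and 60.9% and 51.9% higher, with 2 and 1 of the ribosomal protein genes. When the fit held a term for how many genes each library detected, 0 and 6 were lower and 0 and 0 higher (0.876% and 2.96% of all genes lower, 1.52% and 6.56% higher), and the medians were -1.11 and -0.91. N libraries detected at least 15754 and 11983 genes and muscle libraries at most 9372 and 10837. The term and the region can therefore hardly be told apart in that fit. A limma fit on read counts recovered from the FPKM (limma-voom) kept the count in the M series near that of the main fit. In the Z series it left far fewer genes lower, with the counts given under the processing. No share of all genes is given for that fit, so a loss of these calls and a loss of all calls cannot be told apart. With no overlap between N and muscle libraries asked instead, 72 of 84 genes in the M series and 25 of 85 in the Z series lay below every muscle library in all N libraries, against 1.95% and 1.18% of all genes tested.

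Among large subunit genes RPL41 changed most of those lower in both series. Its N libraries ran from 1658 to 2536 FPKM (median 2179) in the M series and from 3574 to 6965 FPKM (median 4189) in the Z series. Muscle libraries ran from 8529 to 14512 FPKM (median 10435) and from 10775 to 21923 FPKM (median 14756), where the 5 L libraries of the Z series were at 21923, 16584, 10775, 11458 and 10809. The ranges did not meet in either series. RPL41 fell 5.25-fold in the M series (log2 change of -2.39 ± 0.20 (SE), limma adjusted p = 5.51e-12) and 3.1-fold in the Z series (-1.63 ± 0.15, adjusted p = 8.43e-11). After quantile scaling it was higher in N, by 0.63 (limma adjusted p = 0.0364) and 0.97 (0.000206).

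The stalk genes fell too. For rplp0, N ran from 566 to 992 FPKM (median 891) in the M series and from 1123 to 2039 FPKM (median 1424) in the Z series, and muscle from 2593 to 5932 FPKM (median 3847) and from 3026 to 5557 FPKM (median 4086), with no overlap. Its log2 change was -2.22 ± 0.26 and -1.45 ± 0.22, lower in 6 of 6 sections of both series. rplp2, the acidic dimer protein, changed by -2.15 ± 0.23 and -1.39 ± 0.21, and rplp1, its partner, by -1.72 ± 0.33 and -1.22 ± 0.25 (limma adjusted p of the 3 stalk genes at or under 0.000212 in both series). After quantile scaling rplp0 was at -0.25 and 0.30, past the threshold in neither series, whereas rplp1 was lower in both (-1.28 and -0.77).

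Of the core of the large subunit, rpl8, which lies at the peptidyl transferase centre, fell in both series (-1.69 ± 0.34 and -1.02 ± 0.32). Its N libraries ran from 189 to 259 FPKM (median 225) and from 228 to 529 FPKM (median 358) and its muscle libraries from 597 to 869 FPKM (median 709) and from 469 to 985 FPKM (median 754), so that the groups overlapped in the Z series and not in the M series. rpl11 and rpl5a, which join 5S ribosomal RNA to the subunit and bind Mdm2 when assembly fails, fell in both series as well (rpl11 -1.49 ± 0.27 and -0.74 ± 0.24, rpl5a -1.78 ± 0.52 and -1.33 ± 0.31). rpl3, another protein near the catalytic centre, fell by a like amount in the M series (-1.27 ± 0.43) and less in the Z series (-0.65 ± 0.26, limma adjusted p = 0.0375). rpl13a and rpl5b fell in the M series alone by the test (-1.23 ± 0.45 and -1.14 ± 0.44), with -0.36 ± 0.28 and -0.59 ± 0.29 in the Z series. After quantile scaling rpl3 and rpl11 stood at 0.099 and 0.21 in the Z series, on the higher side. The difference between the series was tested for each of the 84 genes and passed for none of them.

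In the small subunit rps12 fell most of the genes lower in both series. It ran from 35.1 to 65.9 FPKM (median 57) in N and from 149.8 to 327 FPKM (median 257) in muscle of the M series, and from 83 to 242 FPKM (median 205) and from 349 to 963 FPKM (median 568.1) in the Z series. The groups did not overlap in either series. Its log2 change was -2.19 ± 0.55 (limma adjusted p = 0.00138) and -1.61 ± 0.34 (0.000245), and it stayed lower after quantile scaling, at -2.48 and -1.41 (limma adjusted p = 0.000746 and 0.0051).

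rps3, which lines the mRNA entry of the small subunit, ran from 328 to 566 FPKM (median 373) in N and from 692 to 1495 FPKM (median 1022) in muscle of the M series and from 394 to 823 FPKM (median 552) and from 803 to 1258 FPKM (median 917) in the Z series. It fell by 1.30 ± 0.36 and 0.79 ± 0.28 on the log2 scale. rps14 and rps19, both linked to human anaemias of failed ribosome assembly, fell in both series too (rps14 -1.31 ± 0.28 and -0.72 ± 0.22, rps19 -1.23 ± 0.40 and -0.85 ± 0.30). rps6, the substrate of S6 kinases, and rps18, of the small subunit head, fell in the M series (-1.20 ± 0.35 and -1.10 ± 0.33). They stood in the Z series at -0.61 ± 0.36 and -0.51 ± 0.28, which did not pass. rpsa, also known as a laminin receptor, changed least of the panel in the M series, by -0.85 ± 0.29, and by -0.57 ± 0.24 in the Z series (limma adjusted p = 0.0476), a call lost when any 1 section of the Z series was left out. None of rps3, rps6, rps14, rps18, rps19 and rpsa passed after quantile scaling in either series, and in the Z series rps6, rps14, rps18 and rpsa then stood on the higher side (0.034, 0.43, 0.23 and 0.16).

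The gene that rose was rps19bp1, which is no ribosomal protein. It was above 0 in each of the 12 N libraries, from 4.09 to 48.8 FPKM (median 9.49) in the M series and from 13.3 to 87.3 FPKM (median 28.6) in the Z series. In muscle of the M series it was above 0 in 1 library of 12, and in the Z series it ran from 0 to 134 FPKM, overlapping N. The 3 reads that a count of 0 allows are worth 2.89 to 33.7 FPKM of this gene in the libraries of the M series listed at 0. Its log2 change was 3.47 ± 0.71 (limma adjusted p = 0.000143) and 2.29 ± 1.00 (0.06), a fitted value that depends on the added 1 FPKM.

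**Figure D2:**
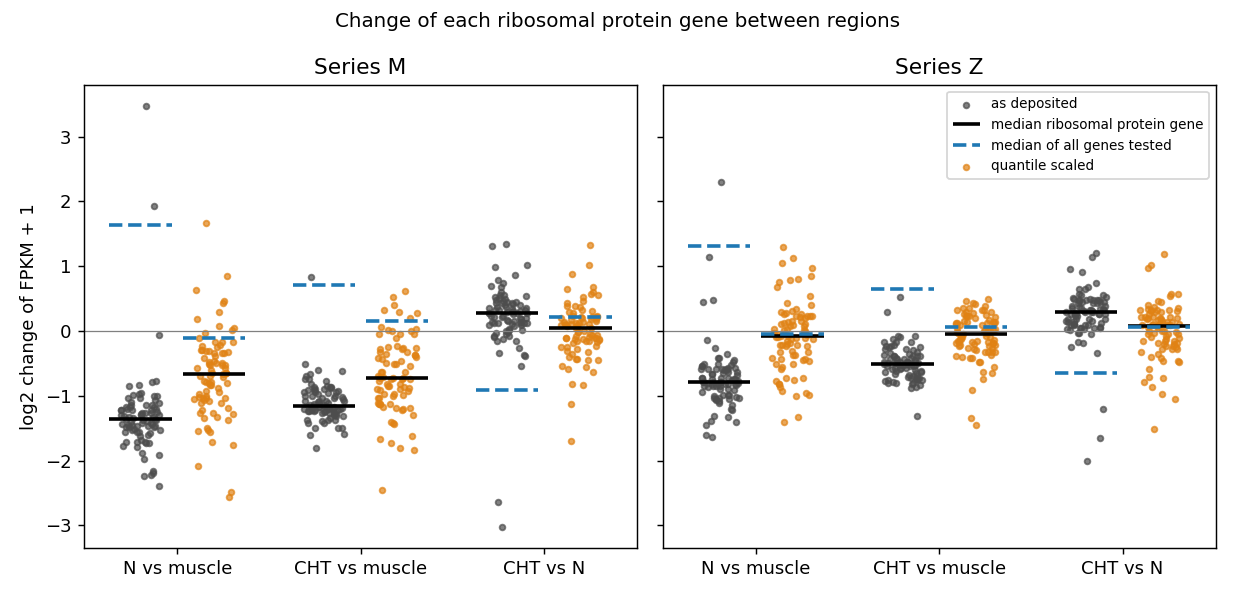
Log2 change of FPKM + 1 (vertical axis) of each ribosomal protein gene tested in 3 comparisons between regions, as deposited (grey) and after quantile scaling (orange), for the M series (left) and Z (right). Black bars are the median ribosomal protein gene and dashed blue bars the median of all genes tested, which stand at -1.36 and 1.63 for N against muscle in the M series as deposited and at -0.66 and -0.11 after scaling.

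CHT against muscle sets the mean of the 3 vascular captures against the mean of L and R, the same muscle libraries as above. Here too genes were lower as deposited, most of them in the M series and a minority in the Z series. Of 84 in the M series 78 fell and 0 rose (5.35% of all genes fell and 19.1% rose), with a median change of -1.15 against 0.71 for all genes. In the Z series 31 of 85 fell and 0 rose (4.11% fell and 22.1% rose), with a median of -0.51 against 0.65. In both series 30 were lower. After quantile scaling 26 and 0 were lower (8.51% and 6.61% of all genes), and RPL41 was the 1 gene higher in both series (4.91% and 7.37%). The median was then -0.72 and -0.042, and 11 genes of the Z series had an unadjusted p under 0.05 in limma. The count for the Z series was 12 without layer 10, 18 without layer 1 and 19 without layer 19.

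Among genes called in both series, rpl22 and rps26l were 2 of those with the largest drops. rpl22, an RNA-binding protein of the large subunit with a role in lymphocyte development in mice, changed by -1.81 ± 0.47 in the M series and -0.89 ± 0.31 in the Z series. rps26l, a copy of rps26, changed by -1.49 ± 0.29 and -0.76 ± 0.23 (limma adjusted p at or under 0.0317). RPL41 fell 2.12-fold and 1.35-fold, and rplp0 2.3-fold and 1.63-fold, while after quantile scaling rplp0 stood at 0.32 and 0.12. rpsa stood at -0.50 ± 0.22 and -0.079 ± 0.18 and passed in neither series.

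Each capture was also set against muscle alone, in comparisons added after the levels were seen. CVP was lower than muscle for 79 of 84 genes in the M series and 66 of 85 in the Z series, 65 of them in both (3.57% and 3.4% of all genes fell, 24.6% and 24.4% rose). The 1 that rose in CVP of the M series was rps19bp1. CV was lower for 44 and 4 genes, with RPL41, rpl26 and rplp0 among the 4 (4.43% and 3.02% of all genes fell, 9.6% and 15.2% rose), and CA for 7 and 0 (3.47% and 2.62% fell, 7.09% and 5.7% rose). The CA figure of 0 for the Z series comes from limma, with 6 genes at an unadjusted p under 0.05. The medians were -1.55, -1.04 and -0.69 in the M series and -1.01, -0.41 and -0.095 in the Z series. After quantile scaling 30 and 5 genes were lower in CVP (6.04% and 4.9% of all genes) and 1 and 0 higher (5.05% and 6.61%), and 18 and 0 were lower in CV (6.66% and 4.38%) and 0 higher (4.34% and 5.66%), so that none was lower in CV of both series. In CA 2 and 0 were then lower (5.45% and 3.72%) and 2 and 3 higher (3.08% and 3.46%). RPL41 was higher in CA of both series on that scale (1.11 and 0.90, limma adjusted p = 0.000374 and 0.00192), where it stood at -0.65 ± 0.20 and 0.065 ± 0.15 as deposited. The 0 lower in CV of the Z series comes from limma, with 4 genes at an unadjusted p under 0.05. Muscle markers of 4411 to 95908 FPKM were summed in the CA captures of the M series, and of 1261 to 39902 in those of the Z series, and their part in the CA levels was not tested.

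CHT against N gave few calls. In the M series 5 genes rose and 2 fell (2.52% of all genes rose and 26.5% fell), and in the Z series 7 rose and 1 fell (5.51% and 22.6%). The median gene was higher by 0.27 and 0.29, where the median of all genes changed by -0.91 and -0.65. The genes that rose in both series were RPL41 and the 3 stalk genes rplp0, rplp1 and rplp2. rps25 rose in the M series alone, and rpl5a, rpl35a and rps12 in the Z series alone. Those that fell in the M series were rpl7l1 and rps19bp1. RPL41 ran from 11639.8 to 20642 FPKM (median 14484) in CA, from 7348 to 11214 FPKM (median 9488) in CV and from 7290.4 to 10704 FPKM (median 8793) in CVP of the Z series, all above the N libraries given before. In the M series its ranges were from 4129.7 to 14238 FPKM (median 6803) in CA, from 2029.5 to 8340.2 FPKM (median 4716) in CV and from 2956 to 6622 FPKM (median 3967) in CVP, where 1 CV library lay within the range of N. It was 2.48-fold and 2.3-fold higher in the CHT (1.31 ± 0.19 and 1.20 ± 0.14), and quantile scaling took this to -0.012 and -0.48.

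The stalk genes rose by less. rplp1 ran from 516 to 1253 FPKM (median 902) in CA, from 530.4 to 828.7 FPKM (median 666) in CV, from 422 to 674 FPKM (median 488) in CVP and from 192 to 452 FPKM (median 316) in N of the Z series, where 1 CVP library fell within the N range. Its log2 change was 0.98 ± 0.31 (limma adjusted p = 0.0141) and 1.14 ± 0.23 (0.00024), higher in 6 of 6 sections of both series. It was the gene that kept its call in both series after quantile scaling (1.02 and 1.19). On that scale 2 genes rose in the M series and 3 in the Z series (5.07% and 8.15% of all genes), and 0 and 2 fell (11% and 12.1%). The others that rose were rplp2 in the M series and rpl5a and rps12 in the Z series, and RPL37A and rpl32 fell. rplp2 was higher by 1.34 ± 0.22 and 0.67 ± 0.20, and rplp0 by 1.02 ± 0.24 and 0.74 ± 0.20 (0.57 and -0.19 after quantile scaling). Without layer 17 of the M series 3 genes rose there, and without layer 1 or 22 of the Z series 4 did. The 1 that fell in the Z series was no longer called without layer 6, 19 or 22. With CA alone set against N, a comparison added after the levels were seen, 14 genes rose in the M series and 31 in the Z series (1.71% and 2.85% of all genes), 10 of them in both. After quantile scaling 2 and 3 rose (3.61% and 5.22% of all genes) and 0 and 2 fell (8.01% and 9.68%), with 0 in both series. rplp0 and rplp2 were those that rose in the M series and rplp1, rps12 and rpl5a those in the Z series, where RPL37A and rpl18 fell. As deposited rps19bp1 fell in both, as did 24.3% and 22.6% of all genes. With CVP alone, RPL41 rose in both series and no other ribosomal protein gene did (3.1% and 5.92% of all genes), while rpl7l1 fell in the M series and rps21 in the Z series (12.6% and 13.5%). After quantile scaling RPL41 passed in neither, rplp2 rose in the M series and rplp1 in the Z series (4.71% and 7.15%), and 0 and 7 fell, rps21 among them (8.07% and 9.68%).

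**Figure D3:**
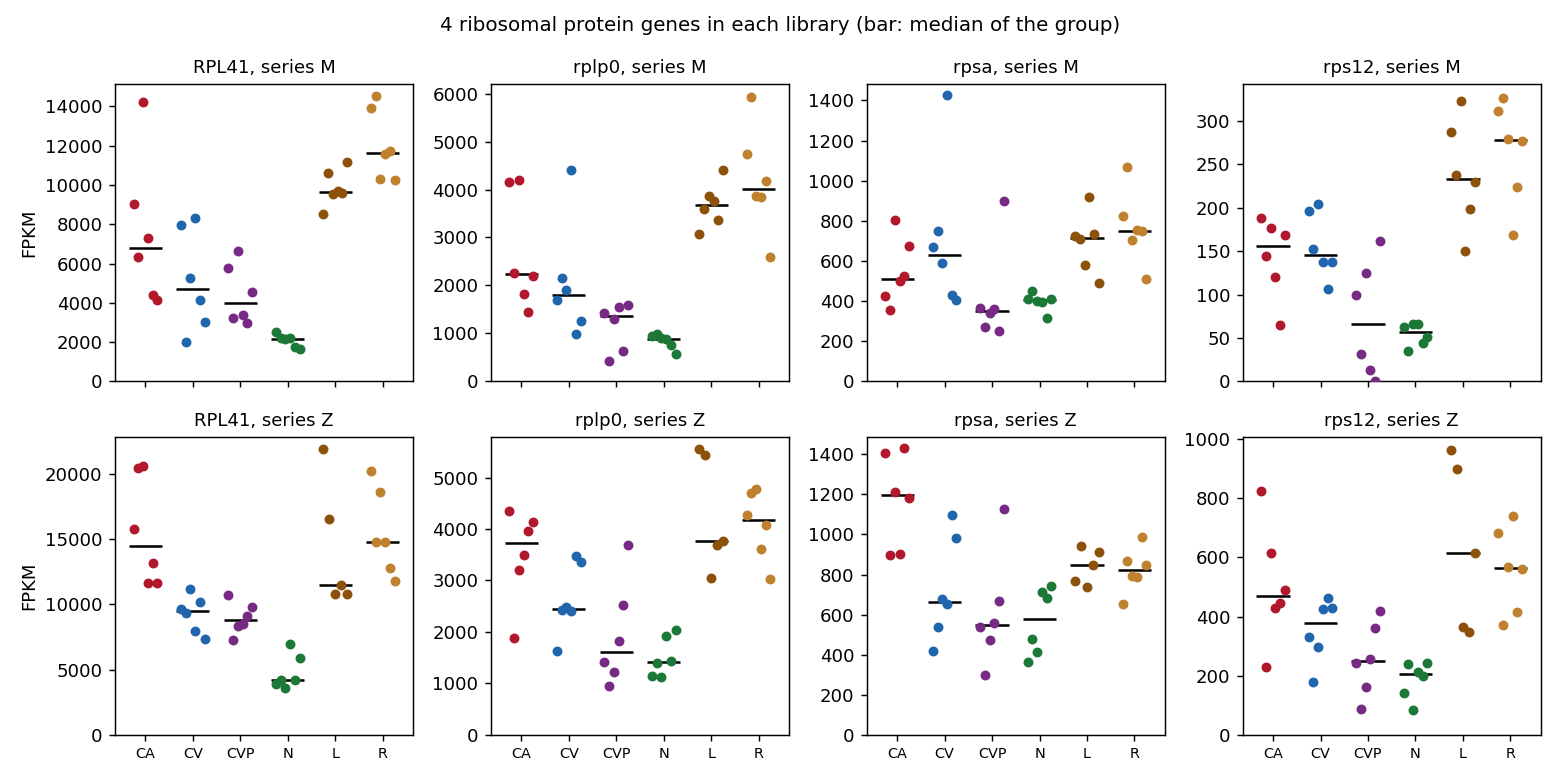
FPKM (vertical axes, linear from 0) of RPL41, rplp0, rpsa and rps12 in each library by captured region, with the M series above and the Z series below. Points are libraries ordered by layer within a region and bars group medians. Within each series RPL41, rplp0 and rps12 are lower in every N library than in every muscle library. For rpsa 1 CV library of the M series, at 1425 FPKM, tops all others of its series.

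Between the vessels, a minority of genes was lower in CVP than in CA as deposited. In the M series 6 of 84 genes fell (0.372% of all genes fell) with a median of -0.84, and in the Z series 26 of 85 (0.707%) with a median of -0.94, while the median of all genes was 0.57 and 0.56. None rose, where 3% and 3.75% of all genes did. The genes lower in both series were rplp0, rplp2l, rps15 and rpl39, named after their values were seen. rplp2l, a copy of rplp2, changed by -1.54 ± 0.40 and -1.39 ± 0.29, and rpl39, which lines the exit tunnel, by -1.27 ± 0.37 and -1.40 ± 0.32. rps15, of the small subunit head, changed by -1.01 ± 0.30 and -1.14 ± 0.29, and rplp0 by -1.26 ± 0.30 and -0.96 ± 0.25. After quantile scaling 0 genes passed in limma in either series, with 17 and 27 at an unadjusted p under 0.05. Without the libraries that lay closest to another region, 7 and 48 genes were lower (0.524% and 0.721% of all genes, with 3.27% and 4.25% higher), and without layer 17 of the M series, 17 were lower there. The count of 6 in the M series was 0 without layer 6 or 8 and 2 to 3 without layer 2, 12 or 15. That of 26 in the Z series was 6 without layer 10 and 12 to 17 without layer 1, 6, 19 or 22.

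CV and CA differed for 0 genes in the M series and 1 in the Z series, where RPL41 was lower in CV (1.26% and 0.894% of all genes fell, 1.41% and 3.41% rose). limma gave 14 and 9 genes at an unadjusted p under 0.05. CVP against CV called rpl5a and rps12 lower in the M series (0.657% of all genes lower, 4.24% higher) and 0 genes in the Z series (0.242% lower, 0.199% higher). At an unadjusted p under 0.05 in limma there were 26 and 43, a cut for which no share of all genes is given. Without the libraries closest to another region the calls became 22 and 7 lower (1.32% and 0.407% of all genes, with 7.88% and 0.42% higher). Without layer 17 of the M series 16 were lower there, and without layer 6, 8, 12 or 15 at most 1. The epidermal markers, given above for CV, summed to 180.1 to 26902 FPKM in CVP and 0 to 28043 in CA of the M series, and to 1256 to 10719 and 2.28 to 215 in the Z series. Red cell markers were at 13.2 to 6531 FPKM in CA, 0 to 854 in CV and 0 to 5324 in CVP of the M series. They were highest by median in CA of the Z series, at 19406 to 215807 FPKM (median 104862), against 1652 to 246583 FPKM (median 24053) in CV and 1625 to 147074 FPKM (median 26014) in CVP. The part of both marker lists in the vessel comparisons was not tested. Left and right muscle differed for 0 genes in both series (0% of all genes higher or lower in the M series and 0.0121% higher in the Z series, with 0 and 1 ribosomal protein genes at an unadjusted p under 0.05 in limma). The medians were -0.21 and -0.091.

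To see which genes left the common movement, the median log2 level of the tested ribosomal protein genes was subtracted from every gene in each library before the fit. A factor common to a library drops out of this comparison for well expressed genes, though not for those at or near 0, where the added 1 counts, and a scaling that acts unequally on high and low levels does not drop out. In N against muscle 3 genes were then higher and 3 lower of 84 in the M series, and 3 higher and 4 lower of 85 in the Z series. Because all other genes are measured against the same falling median, 85.7% and 67.7% of all genes tested were higher and 1.48% and 1.84% lower. As deposited RPL41, rplp0 and rplp2 fell further than the median gene in both series, and quantile scaling turned the direction of RPL41 and rplp0. RPL41 departed by -1.01 ± 0.18 (limma adjusted p = 4.78e-06) and -0.81 ± 0.13 (1.55e-06), rplp0 by -0.84 ± 0.19 and -0.62 ± 0.15, and rplp2 by -0.77 ± 0.21 and -0.57 ± 0.17. As deposited, these calls held when any section was left out. With quantile scaling before the subtraction, an alternative added after seeing the data, RPL41 instead lay above the median gene in both series, by 1.29 and 1.07 (limma adjusted p = 0.000114 and 0.000387). rplp0 then stood at 0.41 and 0.41 and rplp2 at -0.37 and -0.26, neither past the threshold. In all 8 and 7 genes were then higher (18.8% and 13.7% of all genes) and 2 and 1 lower (4.74% and 6%).

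The other departures were less even. rps12 stood at -0.81 ± 0.51 and -0.79 ± 0.30 and passed in the Z series alone, where the call was lost without layer 1, 10 or 25. After quantile scaling it was lower in both (-1.82 and -1.3). rps26l stood at -0.54 ± 0.32 and -0.58 ± 0.27 and passed in neither series. On the upper side rps21, a small protein of the small subunit, stood at 0.37 ± 0.29 and 0.68 ± 0.23, past the threshold in the Z series. rpl18, of the large subunit, stood at 0.60 ± 0.29 and 0.56 ± 0.28 and passed in neither. rpsa departed by 0.53 ± 0.25 in the M series (limma adjusted p = 0.0495), which no longer passed when any 1 section was left out, and by 0.25 ± 0.20 in the Z series. rpl7l1 departed by 3.32 ± 0.89 and 1.27 ± 0.86, and rps19bp1 by 4.85 ± 0.68 and 3.12 ± 1.02. Both were at 0 in many libraries, so these sizes depend on the added 1 and on the library's median. With 0.1 added instead, rps19bp1 stood at 7.79 and 4.61 and rpl7l1 at 4.51 and 1.63. After quantile scaling they were at 0.64 and -0.89 for rpl7l1 and 2.33 and 1.15 for rps19bp1. RPS27L, a p53 target in human cells, stood at 1.32 ± 1.04 and 1.31 ± 0.80 with wide errors, having been listed at 0 in 5 and 1 libraries, and at -0.60 and -0.12 after quantile scaling.

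**Figure D4:**
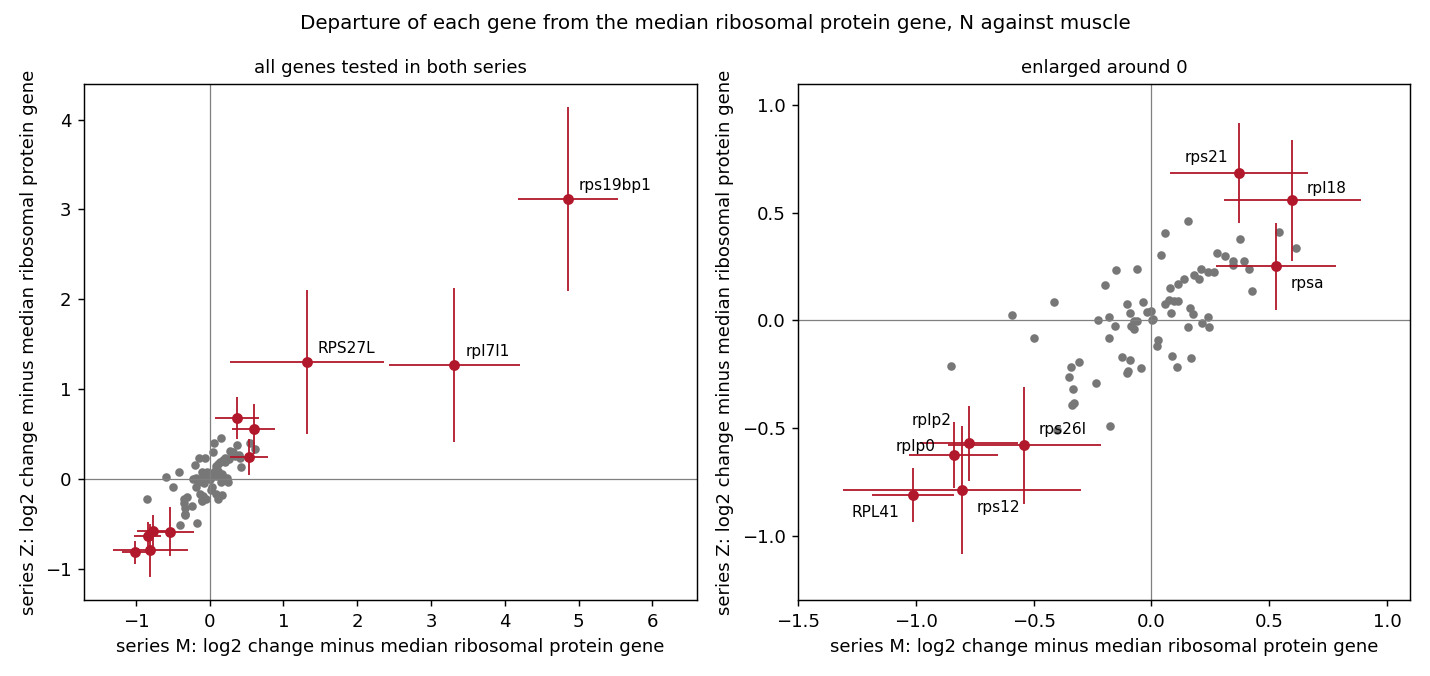
Log2 change in N against muscle of each of the 84 genes tested in both series, minus that of the median ribosomal protein gene, as deposited, in the M series (horizontal axis) and the Z series (vertical axis), with all genes at left and the centre enlarged at right. Red points with SE bars are the named genes and grey points the others. RPL41, rplp0, rplp2 and rps12 lie at the lower left, the first 2 of them on the other side of 0 after quantile scaling, and rps19bp1 and rpl7l1, which are not core ribosomal proteins, at the upper right.

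As deposited, departures were ordered alike in the series, which share no library (rho = 0.771 over 84 genes, as a description). Against the level of a gene rho was -0.108 in the M series and -0.116 in the Z series, and against its length 0.286 and 0.134.

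Departures were taken in the CHT in the same way. Against muscle, rpsa stayed above the median gene in both series, by 0.54 ± 0.19 (limma adjusted p = 0.0108) and 0.42 ± 0.15 (0.023), although its call in the Z series was lost without layer 1, 10 or 22. Of all genes tested 78.4% and 48.6% were higher on this scale and 3.07% and 3.14% lower, and of the ribosomal protein genes 3 and 2 were higher and 0 lower. In CA of the Z series rpsa ran from 899.9 to 1429.6 FPKM (median 1197), with muscle there from 653 to 988 FPKM (median 848). This holds for CA alone. Over the whole CHT rpsa itself stood on the lower side of muscle as deposited, as given above, and passed in neither series. rps27.1 and rps19bp1 passed in the M series alone and rplp1 in the Z series alone. Against N, RPL41 rose above the median gene by 0.97 ± 0.17 and 0.88 ± 0.12 and rplp0 by 0.68 ± 0.18 and 0.42 ± 0.14 (1.76% and 4.15% of all genes were higher). rps21 fell below it by 0.73 ± 0.28 and 0.67 ± 0.22 (limma adjusted p = 0.038 and 0.0152), where 34% and 30.2% of all genes were lower. rplp2 passed on the higher side in the M series and rplp1 in the Z series. On the lower side rpl19, rpl7l1 and rps19bp1 passed in the M series. Of the 4 lower in the M series 2 were left without layer 2, 8, 12 or 15, and of the 2 in the Z series 1 without layer 10 or 22.

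Quantile scaling moved these departures too. Against muscle it gave 9 and 2 genes higher (19.9% and 6.98% of all genes) and 5 and 1 lower (6.35% and 6.08%), with RPL41 and RPL37A higher in both series and rpsa at 0.74 and 0.48, past the threshold in the M series. Against N it gave 2 and 3 higher (3.85% and 6.94%) and 2 and 5 lower (11.4% and 12.4%). There RPL41 turned to -0.14 and -0.56 and rplp0 stood at 0.45 and -0.28, neither past the threshold, whereas rps21 stayed lower in both series (-0.94 and -0.88) and rplp1 was higher in both (0.89 and 1.11).

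Zebrafish carries several ribosomal proteins in duplicate, and a factor common to a library also drops out of the ratio of copies that are well above 0. For 6 pairs the log2 ratio in N was compared with that in muscle of the same section by an exact two-sided sign-flip permutation test, which with 6 sections cannot go below an exact p of 0.03125. After adjustment over the 12 tests the smallest value was 0.075, so no pair passed, and counts of sections are given beside the sizes. rpl5a to rpl5b differed in N from muscle by -0.64 ± 0.43 and -0.63 ± 0.68 (SD), in 6 of 6 sections of the M series and 5 of 6 of the Z series. rps26 to rps26l was higher in N by 0.60 ± 0.38 (SD, n = 6, exact permutation p = 0.0312) and 1.04 ± 0.42 (SD, n = 6, exact permutation p = 0.0312), in 6 of 6 sections of both. The ratio was 0.24 in N and -0.36 in muscle of the M series, and 0.35 and -0.69 in the Z series, so that rps26l was the more abundant row in muscle and rps26 in N.

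In FPKM, rps26 ran from 157 to 295 FPKM (median 206) in N and from 393 to 824 FPKM (median 545) in muscle of the M series, and rps26l from 151 to 230.0 FPKM (median 181) and from 478 to 1193 FPKM (median 635). rplp2 to rplp2l was lower in N in 4 of 6 sections of the M series and 6 of 6 of the Z series (-0.54 ± 0.46 and -0.56 ± 0.24, SD). rpl7 to rpl7l1 was lower in N in 6 of 6 and 5 of 6 sections, with rpl7l1 near the detection limit. rpl22 to rpl22l1 and rps27.1 to rps27.2 went either way between sections, with mean differences of 0.014 and 0.27, and -0.14 and 0.028. rps8a and rps8b gave no ratio because rps8b was nearly always at 0. Reads that match both copies may have been assigned to either or dropped by the authors' counting, so single copies are uncertain.

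The 2 series were set against each other in a joint fit. The drop in N against muscle was smaller in the Z series for 82 of 84 genes by sign, with a median difference of 0.56, and that in CHT against muscle for 83 of 84 with 0.61. These genes move together and no value for all genes is set beside them, so the counts by sign are a description only. The joint fit covered all genes tested in both series, but how far the others shared this shift is not given here. In limma 0 genes passed in any of the 3 comparisons (0% of all genes rose or fell in N against muscle, and 0.456% rose and 0.173% fell in CHT against muscle), with 9 and 33 of 84 at an unadjusted p under 0.05. In CHT against N the median difference was 0.049, with 1 gene at an unadjusted p under 0.05 (0.283% of all genes rose and 0.045% fell). Red cell markers moved with the series in the vascular captures, with a median of 311 FPKM in CA of the M series and 104862 in CA of the Z series, and their part in these differences was not tested.

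A slope along the numbered layers was fitted too. In the Z series it had a median of 0.25 log2 units per 10 layers, positive for 84 of 85 genes, where the median of all genes was 0.16. The share of all genes with a positive slope is not given and these genes move together, so the count by sign is a description only. Of the 85, rpl26 and rpl7, named after their values were seen, passed (0.236% of all genes rose and 0.00604% fell), and neither did after quantile scaling. Without layer 10, 19, 22 or 25 none passed, and without layer 6 there were 4. In CVP of that series the median gene went from 351, 190.3 and 305 FPKM in layers 1, 6 and 10 to 456, 599 and 760.0 in layers 19, 22 and 25. N went from 332, 451 and 346 to 594, 520.2 and 628. Depth moved with the layer too, from 179333 reads in layer 1 to 3601919 in layer 25 of N, and its part in the trend was not tested. In the M series 0 genes passed in limma (0% of all genes), with 2 at an unadjusted p under 0.05 and a median slope of -0.14.

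Other genes of translation were described beside them, from lists chosen with earlier results of these data known. Of ribosomal components under other names, faua is made as a fusion with a relative of ubiquitin, and gnb2l1 is a scaffold on the small subunit. In N against muscle both fell in the M series, faua by 1.22 and gnb2l1 by 0.69, and in the Z series faua stood at -0.46 and gnb2l1 at -0.20. After quantile scaling gnb2l1 was higher in N in both series. The lists that follow stand against the 49.1% and 41.8% of all genes that were higher in N and the 3.27% and 3.49% that were lower, with medians of 1.63 and 1.32. The 9 elongation factor genes tested split, with 3 higher and 2 lower in N of each series. Among them eef1a1a, which brings aminoacyl-tRNA to the ribosome, rose by 3.70 and 3.79, and eef2l2 fell by 3.04 and 2.26. Of 16 other TOP mRNAs, messages with the same start, 5 were higher in N and 0 lower in each series (medians 0.95 and 1.11), and of 33 ribosome assembly genes 6 and 2 were higher and 0 lower (1.00 and 0.95). The 11 RNA polymerase I genes gave 4 higher and 0 lower in each series, and of the S6 kinase genes 6 of 11 and 4 of 10 were higher. Of 18 genes that act on ribosomal protein mRNAs 5 were higher and 1 lower in the M series, and 1 and 1 in the Z series. After quantile scaling the ribosome assembly genes gave 6 and 3 lower and 0 higher. Of all genes 7.33% and 7.22% were then lower and 11.4% and 13.5% higher, so that the count in the Z series lay near the share of all genes. The direction of their calls turned with the scaling, but as deposited their medians already lay below those of all genes.

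The proteins of the mitochondrial ribosome are encoded by separate genes. In N against muscle 1 of 76 rose and 1 fell in the M series, and 2 rose and 0 fell in the Z series (medians 0.19 and 0.14). In CHT against muscle 55 of 76 fell in the M series and 27 in the Z series (medians -2.19 and -1.55), and 0 rose, where 5.35% and 4.11% of all genes fell. After quantile scaling 66 and 48 fell there, with 8.51% and 6.61% of all genes. In CHT against N 33 and 17 of 76 fell (medians -2.16 and -1.75), where 26.5% and 22.6% of all genes did, so that the share in the Z series lay at that of all genes. After quantile scaling 16 and 5 fell, with 11% and 12.1% of all genes. mrpl43, a protein of the mitochondrial large subunit, fell by 4.39 and 2.76 in CHT against muscle. Median depth in the M series was 127739 reads in CA, 106508 in CV and 267961 in CVP, against 569694 in L and 617226 in R. In the Z series it was 589944, 857310 and 962328, against 1553533 and 609582. Levels of the mitochondrial genes are not given here, and the part of depth in their drops was not tested. These comparisons share muscle, N and CHT libraries with those of the cytosolic genes.

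**Figure D5:**
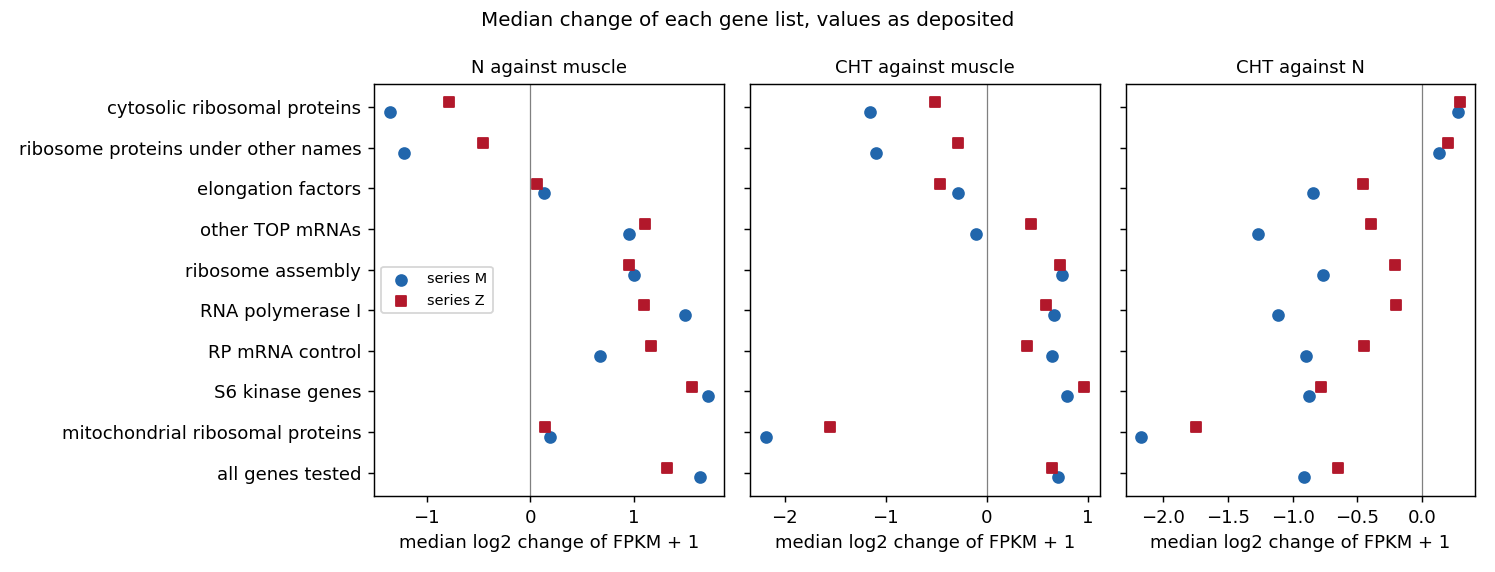
Median log2 change of FPKM + 1 (horizontal axes) of the ribosomal protein genes, of 8 other lists of translation genes and of all genes tested, in N against muscle, CHT against muscle and CHT against N, as deposited. Circles are the M series and squares the Z series. The cytosolic ribosomal proteins lie at -1.36 and -0.79 in N against muscle, where all genes lie at 1.63 and 1.32, and the mitochondrial ribosomal proteins at -2.19 and -1.55 in CHT against muscle.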

How the data were processed

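The authors deposited, per the file headers, 1 table of FPKM per series with 25067 protein-coding genes and 36 libraries each. Per the submitters' processing notes, FastQC, HISAT, HTSeq and DESeq2 were used with the GRCz10 build. Versions are not given in the sources used here. RNA was amplified by a single-cell PCR method, per the labels' protocols, without stated molecular identifiers, so intervals and limits cover counting error only.

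Whole reads were recovered from the steps between low FPKM values (100% of values above 0 whole within 0.001 read, in 23948 genes of the M series and 23482 of the Z series) and gave depths, shares and gene lengths. All columns matched a library. Tests covered genes that reached 1 FPKM in 6 or more libraries, 18263 of the M series and 16547 of the Z series, 15571 being shared. limma 3.58.1 (R 4.3.3) was fitted per series to log2(FPKM + 1), the terms being region and section, with p-values two-sided and adjusted by Benjamini-Hochberg over all genes tested. Fold changes on this scale understate low genes. The section pairs the regions by design, since all 6 were cut from each. Deviations of same-section libraries correlated at 0.00979 (the M series) and 0.0240 (the Z series) on average. limma-voom on the recovered reads called 2 higher and 79 lower of the ribosomal protein genes in N against muscle in the M series, and 0 and 5 in the Z series. The share of all genes that it called is not given. Alternatives were a pseudocount of 0.1, no filter, quantile scaling, no section term, a detected-gene covariate, limma-voom, leaving out each section and leaving out libraries closest to another region. TPM scaling, quantile scaling of the departures from the median gene, keeping the made library, and single vascular captures against muscle or N were added after seeing the data. The read recovery and the limma fit were tested on simulated data.

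Members and lists were chosen with earlier results of these data known. Most ribosomal protein genes named with values are a fixed panel of well known ribosomal proteins, the largest changes called in both series, the largest departures from the median gene, the highest and lowest levels, and the copy pairs. Others given with values, such as rpl39 and rps15, fall outside these rules. So do the genes named from the other lists, namely faua, gnb2l1, eef1a1a, eef2l2 and mrpl43, which are single examples and do not stand for their lists. Some genes are counted in the totals but not reported here by name. No gene coordinates are given, because the annotation at hand is of another build.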

Additional observations from a re-analysis of the deposited data

Results flagged for a closer look

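Of 72 groups of libraries examined, 5 held 1 library far from the rest, where chance gives about 1 in 20 for independent groups. The groups share libraries and measures that move together, so the number cannot be weighed against chance. Most of the 5 concern the same library on related measures. In CV of the M series, layer 12 stood above the other 5 libraries in the median ribosomal protein gene (758 FPKM, the others 233 to 393). The share of its reads taken by these genes was 8.89% (95% Wilson interval 8.81 to 8.97), rplp0 reached 4402 FPKM and rpsa 1425 FPKM. This library was also the deepest of its group, with 487557 reads against 75069 to 129972, and detected the fewest genes, 4516 against 6836 to 10103. In CVP of the M series, layer 17 held rpsa at 900.2 FPKM, where the others ranged from 249 to 367, and its profile lay closest to CV.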

How the results depend on the processing

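Each value below is the number of ribosomal protein genes called, in the M series and then Z where 2 are given, and the cause of the shifts was not tested unless named. Shares of all genes called are given above for some of these fits only. For the rest, a shift of these genes and a shift of all calls cannot be told apart. Quantile scaling gave 2 and 5 higher and 19 and 4 lower in N against muscle, 1 and 1 higher and 26 and 0 lower in CHT against muscle, and 2 and 3 higher and 0 and 2 lower in CHT against N. It left 1 and 0 lower in CV against CA, 0 and 0 in CVP against CA, 1 in CVP against CV of the M series and 0 higher along the layers of the Z series, where the rank of the layer also gave 0. A term for detected genes gave 0 higher in the M series and 0 and 6 lower in N against muscle, 14 lower in CHT against muscle of the Z series, 0 and 1 higher and 0 lower (the M series) in CHT against N, 0 lower in CV against CA of the Z series, 0 and 3 in CVP against CA and 0 and 1 in CVP against CV. voom gave 2 higher (M) and 5 lower (Z) in N against muscle, 1 higher (M) and 0 lower (Z) in CHT against muscle, 2 higher (Z) and 1 and 0 lower in CHT against N, 0 lower in CV against CA of the Z series, 1 and 0 in CVP against CA and 0 in CVP against CV of the M series. TPM scaling gave 2 and 1 higher and 33 and 11 lower in N against muscle, 33 and 9 lower in CHT against muscle, 2 higher and 3 lower in CHT against N of the Z series and 9 lower in CVP against CA of the Z series. In N against muscle of the Z series, a pseudocount of 0.1, no filter and keeping the made library each gave 1 higher, and no filter gave 2 lower in CHT against N there. Without the libraries closest to another region, fewer libraries entered and 2 were higher in CV against CA of the M series, 48 lower in CVP against CA of the Z series, and 22 and 7 lower in CVP against CV. Relative to the median gene this gave 5 lower in N against muscle, 1 lower in CHT against muscle and 5 higher in CHT against N, all in the M series, and a pseudocount of 0.1 gave 1 higher in CHT against muscle of the Z series. Quantile scaling before the median was subtracted, added after seeing the data, gave 8 and 7 higher and 1 lower (Z) in N against muscle, 9 higher (M) and 5 and 1 lower in CHT against muscle, and 2 and 5 lower in CHT against N.

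With 1 section left out at a time, the counts ran from 1 to 2 higher (M), 0 to 1 higher (Z) and 24 to 60 lower (Z, 24 without layer 10 and 29 without layer 1) in N against muscle. They ran from 12 to 29 lower in CHT against muscle of the Z series, and in CHT against N from 3 to 6 and 4 to 10 higher and from 0 to 2 lower (Z). CV against CA of the M series ran from 0 to 1 higher and 0 to 2 lower, CVP against CA from 0 to 17 (0 without layer 6 or 8) and 6 to 31 lower (6 without layer 10), and CVP against CV of the M series from 0 to 1 higher and 0 to 16 lower (16 without layer 17). The layer trend of the Z series ran from 0 to 4 higher. Relative to the median gene, CHT against muscle of the Z series ran from 0 to 1 higher and CHT against N from 2 to 3 and 1 to 3 lower. rpsa in CHT against muscle of the Z series ran from -0.16 to 0.0037, and the log2 ratios of rpl22 to rpl22l1 in the M series from -0.25 to 0.21 and of rps27.1 to rps27.2 from -0.32 to 0.018 and -0.078 to 0.16.

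Single genes that changed sign are listed as a selection (log2 change), and others changed sign too. Under quantile scaling in N against muscle these included RPL37A (0.84 and 1.29), RPL41 (0.63 and 0.97), rpsa (0.013 and 0.16) and rpl7l1 (-0.030 and -0.9998) in both series. In the Z series they also included rplp0 (0.30), rpl3 (0.099), rpl11 (0.21), rps6 (0.034), rps14 (0.43) and rps18 (0.23). In CHT against muscle they included RPL41 (0.61 and 0.49), rplp0 (0.32 and 0.12) and rpsa (0.20 and 0.46), and in CHT against N RPL41 (-0.012 and -0.48) and rplp0 in the Z series (-0.19). With detected genes as a covariate, N against muscle gave rps3 0.27 in the M series and rps19bp1 -2.22 and rpl7l1 -2.38 in the Z series, CHT against muscle gave rpsa 0.0085 in the Z series, and CHT against N gave rpsa -0.049 in the M series and rps19bp1 0.74 in the Z series. rpsa in CHT against muscle of the Z series stood at 0.15 with voom and 0.12 with TPM scaling, which also gave rpl13a 0.20 and rps18 0.051 in N against muscle of the Z series. Departures from the median gene also changed sign under quantile scaling, and again only a selection is listed. In N against muscle it holds RPL41 (1.29 and 1.07), rplp0 (0.41 and 0.41), RPS27L (-0.60 and -0.12) and rpl7l1 in the Z series (-0.89). For CHT against muscle it holds RPL41 in the M series (1.15), rplp0 (0.86 and 0.14) and rps19bp1 in the Z series (-0.46). For CHT against N it holds RPL41 (-0.14 and -0.56) and rplp0 in the Z series (-0.28).

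Dropping the section as a replicate block moved no count of calls by over 1.5 times, with 77 lower in N against muscle of the M series. Depth limits rps8b, rpl7l1, RPS27L and rps19bp1, which were at 0 in some libraries.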
